A study of Mus musculus with 19 samples.

Results

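The controls of 2 mouse colonies were compared: those bred with the AP-2eCre line and those bred with the OMPCre line. By their labels and the study's methods, no control combined a Cre allele with floxed Smad4, the gene of the mediator shared by the TGF-beta and BMP pathways. The members were all libraries that the labels call wild type or heterozygous in either line, which gave 12 of the 19 libraries of the series, 6 per line. The measured material was polyA+ RNA of the whole vomeronasal organ at postnatal day 21, sequenced as stranded single reads. Each line held 3 animals labelled wild type, whose genotype in the study's methods is Smad4 flox/flox without Cre, and 3 heterozygous animals, AP-2eCre+/- in the first line and OMPCre+/- in the second. Both Cre genes are knock-ins, at Tfap2e and at Omp, so a heterozygote lacks 1 copy of the host gene. AP-2eCre acts in the basal neurons of the organ from an immature stage and OMPCre in all mature sensory neurons. The labels name these neurons as cell type, but whole organs were dissected. All animals are labelled female. A further AP-2eCre-line library with conflicting labels was left out of every comparison.

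The vomeronasal organ detects pheromones and other social odours. Its sensory neurons form an apical population that uses V1r receptors and the G protein subunit Gnai2, and a basal population that uses V2r receptors and Gnao1 and depends on the transcription factor AP-2e. The epithelium is surrounded by glands, blood vessels, cartilage and immune cells, and all of them contribute RNA to a whole-organ library. Colonies kept apart differ in the parental strain of their alleles and in inherited insertions, so controls of different lines need not have the same RNA even before the gene under study is removed.

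Estimated counts summed to between 43385516 and 75583450 per control library. Values are CPM, estimated counts scaled to a common library size, and log2 fold changes are AP-2eCre line minus OMPCre line with their SE. The 6 apical identity genes summed to 911 to 1080 CPM in the AP-2eCre line and 968 to 1077 CPM in the OMPCre line, so neither line was a sample of basal neurons alone. The host genes followed the genotypes. Tfap2e was 5.44 to 8.89 CPM in AP-2eCre+/- and 13.7 to 18.7 CPM in the other controls, AP-2eCre-line Smad4 flox/flox included (replicates at 15.5, 14.03 and 16.6). Omp was 225 to 248 CPM in OMPCre+/- and 293 to 475 CPM in the others. Smad4 (chromosome 18, 73639009 to 73703780) did not pass the test between the lines (log2 fold change -0.36 ± 0.19 SE, adjusted p = 0.799 by edgeR's quasi-likelihood test). Its levels were 64.9 to 83.9 CPM in the 6 OMPCre-line controls, and in the AP-2eCre line they were 39.6, 41.5, 43.9, 70.6, 79.8 and 81.0 CPM. The 3 values near 40 belonged to flox/flox replicate 3 and AP-2eCre+/- replicates 3 and 1, and lay below conditional knockout (cKO) replicates 1 and 2 of that line (66.2 and 66.6 CPM, replicate 3 at 33.8 CPM). The Smad4 level of a whole organ thus did not separate the labelled genotypes of the AP-2eCre line, whose groups were taken from the labels.

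A pair of libraries stood apart. AP-2eCre-line flox/flox replicate 3 is labelled female but held RNA of Y-linked genes, with Kdm5d at 29.9 CPM against 2.26 to 4.48 CPM in the other 11 controls and Uty at 30.9 CPM against 0.0439 to 1.49 CPM. OMPCre-line flox/flox replicate 3 lay far from the rest on the first principal component (63.8 against -18.8 to 10.9), and its 13 skeletal muscle genes summed to 247 CPM against 7.53 to 18.02 CPM in the other 11. A further split followed the naming of the deposited files, which has a first style in 8 control libraries and a second in replicate 3 of each group. The 85 ribosomal protein genes summed to 10935 to 12943 CPM in the first and 7441 to 9723 CPM in the second. What this naming stands for is not given in the sources used here, and each group holds both styles. The lines were apart on the third component, which held 12.7% of the variance, at 5.25 to 18.3 in the AP-2eCre line and -30.0 to 4.17 in the OMPCre line.

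Few genes separated the lines. Of 18938 genes tested with the kind of control as covariate, 18 passed an adjusted p of 0.05, which is 0.095% of the genes, 13 of them higher (0.0686%) and 5 lower (0.0264%) in the AP-2eCre line. An unadjusted p under 0.05 was reached by 1242 genes (6.56%), where 947 would be reached by chance. The groups of 6 libraries did not overlap for 94 genes (0.496%), 13 of the 18 called genes among them. The authors' tool DESeq2 called 144 genes on the same libraries (0.712%), 77 higher (0.381%) and 67 lower (0.331%), all 18 of these included. Of the 18938 genes that edgeR tested, DESeq2 called 141 (0.745%). Calls are edgeR's unless DESeq2 is named. Without both libraries that stood apart, edgeR called 5 genes, of which 3 were among the 18. With the naming style of the files as a term 19 genes were called, 17 of them among the 18 and Gucy2c lost (adjusted p = 0.0557). The 8 libraries of the first style alone gave 6 calls, 2 of them among the 18.

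Most of the 18 genes that edgeR called were copies of other genes. By type, 14 of the 18 were pseudogenes of some kind, where pseudogenes were 7.65% of the genes tested. A processed pseudogene is a reverse-transcribed copy of a messenger RNA inserted elsewhere in the genome, and reads from it are hard to tell from reads of its parent gene. As a measure of this, 12 of the 18 shared at least 50% of their 31-mers, the words of 31 bases that salmon matches, with transcripts of other genes, a share reached by 9.17% of all genes tested. Only Alas2 and Gucy2c among the called genes shared less than 1%, and the next lowest, Gm9765, shared 14.8%. This describes edgeR's calls only. The 123 genes that DESeq2 alone called held copies such as Gm10132 (92.9% shared) and Gm14416 (94.2%). They also held protein-coding genes that shared under 1%, such as Adm, Sccpdh and Lyplal1. Their shares by type were not counted. The counts of the copies are therefore uncertain, since an estimate can move between a copy and its parent. The plot of the 18 genes by library shows that several of them were near 0 in all or nearly all libraries of 1 line.

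**Figure D1:**
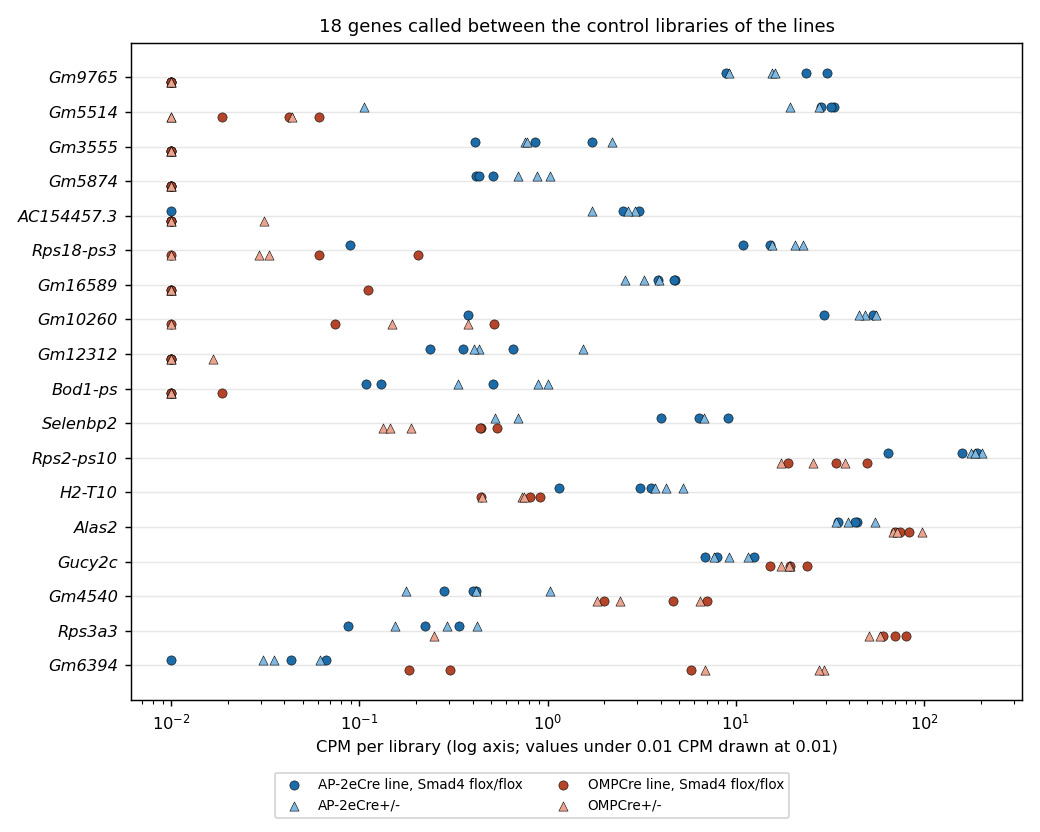
CPM of the 18 called genes in each of the 12 control libraries, on a log axis with values under 0.01 CPM drawn at 0.01, blue for the AP-2eCre line and red for the OMPCre line, circles for Smad4 flox/flox and triangles for Cre heterozygotes. Gm9765, Gm3555 and Gm5874 are at 0 in all 6 OMPCre-line libraries, and single libraries lie at or near the other line's values for Gm5514, Gm10260, Rps18-ps3, AC154457.3 and Rps3a3.

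The degree of likeness is seen in stretches of 4 of these copies beside their parents, from the GENCODE transcripts of GRCm38. Each stretch is 90 bases of the parent's coding sequence, chosen as the first with a number of differences closest to the mean over the aligned stretches. Stretches with many differences were left out of this mean, so the likeness shown may exceed that of the whole coding sequence. Capitals mark the bases that differ between the members of a pair.
Gm16589 copy, chromosome 8: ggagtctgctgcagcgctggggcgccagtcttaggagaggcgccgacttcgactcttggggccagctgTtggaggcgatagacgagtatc
Aida, chromosome 1: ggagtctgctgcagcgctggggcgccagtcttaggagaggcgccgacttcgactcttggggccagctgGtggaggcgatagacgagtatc
Gm5514 copy, chromosome 19: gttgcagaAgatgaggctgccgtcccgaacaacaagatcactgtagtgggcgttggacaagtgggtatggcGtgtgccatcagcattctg
Ldhb, chromosome 6: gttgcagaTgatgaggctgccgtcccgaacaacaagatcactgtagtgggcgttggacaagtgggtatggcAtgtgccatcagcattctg
Rps3a3 copy, chromosome 13: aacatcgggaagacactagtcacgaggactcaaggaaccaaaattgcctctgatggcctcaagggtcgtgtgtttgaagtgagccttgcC
Rps3a1, chromosome 3: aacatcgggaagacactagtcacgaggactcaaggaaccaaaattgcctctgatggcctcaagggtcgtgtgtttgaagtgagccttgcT
Gm10260 copy, chromosome 13: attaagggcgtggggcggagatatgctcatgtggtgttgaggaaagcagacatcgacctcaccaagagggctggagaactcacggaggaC
Rps18, chromosome 17: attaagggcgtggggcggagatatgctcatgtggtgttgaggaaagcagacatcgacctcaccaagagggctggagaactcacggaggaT
The pair Gm5514 and Ldhb differed at 2 of 90 bases and each of the other pairs at 1 of 90.

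The gene with the smallest adjusted p was Gm9765 (ENSMUSG00000038218.3, chromosome 1, 171515233 to 171516922), an unprocessed pseudogene beside Itln1. It was 8.84, 30.3 and 23.5 CPM in AP-2eCre-line flox/flox controls and 15.6, 9.15 and 16.2 CPM in AP-2eCre+/-, and had no count in any OMPCre-line control. Its mean of 17.3 ± 8.38 CPM (SD, n = 6) was at least 365-fold higher than the floor of 3 counts per library (adjusted p = 0.00574, edgeR). Itln1 (chromosome 1, 171518122 to 171535294), which encodes intelectin, a lectin that binds microbial sugars, was 39.3 to 126 CPM in the AP-2eCre line and 0.408 to 16.9 CPM in the OMPCre line. The Itln1 groups did not overlap, but its log2 fold change of 3.56 ± 0.70 missed the threshold (adjusted p = 0.112, edgeR), which DESeq2 passed (adjusted p = 0.000248). In the AP-2eCre-line cKO, Gm9765 was at most 0.0155 CPM and Itln1 0.619 to 3.40 CPM.

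Gm16589 (chromosome 8, 4087658 to 4088575), a processed copy of Aida, followed the same libraries. It was 2.58 to 4.77 CPM in the 6 AP-2eCre-line controls and at most 0.111 CPM in the OMPCre line (log2 fold change 7.83 ± 0.82, adjusted p = 0.00578, edgeR), and at most 0.0143 CPM in the AP-2eCre-line cKO. Aida, an inhibitor of JNK signaling by axin, was 60.2 ± 4.12 and 62.3 ± 4.63 CPM in the 2 lines (adjusted p = 0.926). Gm16589, Gm9765 and Itln1 were already known from earlier comparisons of these libraries with the knockouts, so they are no independent result here.

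Gm5514 (chromosome 19, 21937380 to 21938381), a copy of the lactate dehydrogenase gene Ldhb, was 19.4 to 33.2 CPM in 5 AP-2eCre-line controls and 0.106 CPM in AP-2eCre+/- replicate 3. It was at most 0.0608 CPM in the OMPCre line, so that the groups did not overlap but 1 library of the AP-2eCre line lay with the other line (log2 fold change 9.58 ± 1.12, adjusted p = 0.00941, edgeR). Ldhb itself was 245 ± 25.6 CPM in the AP-2eCre line and 282 ± 18.6 CPM in the OMPCre line (adjusted p = 0.681).

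Copies at a low level made up much of the rest. Gm3555, a copy of the kinase gene Stk38l, was 0.411 to 2.20 CPM in the AP-2eCre line and had no count in the OMPCre line, at least 23.7-fold above the floor. Gm5874, a copy of the tRNA splicing endonuclease gene Tsen15, was 0.417 to 1.02 CPM and again had no count in the OMPCre line, at least 13.9-fold above the floor. Gm12312, a partial copy of Fgfr1op2, and Bod1-ps, a partial copy of Bod1, each had a single count over the 6 OMPCre-line libraries. Their ratios of 230 (95% counting interval 41.2 to 9072) and 189 (33.9 to 7463) cover counting error only, rest on that count and cannot be set beside the bounds from the floor. All 4 were called, with adjusted p of 0.0261, 0.0136, 0.00941 and 0.0259 in this order (edgeR).

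In 3 families of ribosomal protein genes the lines differed in which copy held the counts. Rps3a1 encodes a protein of the small ribosomal subunit. Its copy Rps3a3 (chromosome 13, 108670603 to 108671397) was 0.0866 to 0.424 CPM in the AP-2eCre line and 70.2, 79.8, 60.7, 58.6, 0.250 and 51.2 CPM in the OMPCre line, where only OMPCre+/- replicate 2 was near 0 (log2 fold change -7.61 ± 0.99, adjusted p = 0.0188, edgeR). A further copy, Rps3a2, was 0 to 6.24 CPM in the AP-2eCre line and 17.2 to 176 CPM in the OMPCre line (adjusted p = 0.108). Rps3a1 had the reverse order, 392 ± 63.8 CPM in the AP-2eCre line and 214 ± 79.3 CPM in the OMPCre line (adjusted p = 0.246), and the OMPCre+/- replicate that lacked Rps3a3 had the highest Rps3a1 of its line at 366 CPM. The 6 genes of the family summed to 394 ± 65.1 and 383 ± 79.0 CPM, a log2 fold change of 0.04 ± 0.15 (adjusted p = 0.980).

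The Rps18 family had the opposite layout. Rps18 lies on chromosome 17 (33951999 to 33956001). Its copy Gm10260 (chromosome 13, 97760072 to 97760632), annotated as protein coding, was 29.5, 53.5, 48.6, 45.2 and 55.2 CPM in 5 AP-2eCre-line controls, 0.378 CPM in flox/flox replicate 2, and 0 to 0.517 CPM in the OMPCre line (log2 fold change 7.63 ± 1.08, adjusted p = 0.0259, edgeR). Rps18-ps3 (chromosome 8, 107262793 to 107263248) was 10.9 to 22.7 CPM in the same 5 libraries, 0.0889 CPM in flox/flox replicate 2, and at most 0.204 CPM in the OMPCre line (adjusted p = 0.0259). Rps18 was 105 to 130 CPM in those 5 libraries, 185 CPM in flox/flox replicate 2 and 136 to 224 CPM in the OMPCre line. The sum of the 4 genes was 178 ± 15.3 and 187 ± 29.3 CPM (log2 fold change of the sum -0.07 ± 0.11, adjusted p = 0.937).

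Rps2, also on chromosome 17, and its copy Rps2-ps10 on chromosome 18 had the same layout. Rps2-ps10 was 158 to 203 CPM in 5 AP-2eCre-line controls, 64.2 CPM in flox/flox replicate 2, and 17.4 to 49.5 CPM in the OMPCre line (log2 fold change 2.41 ± 0.32, adjusted p = 0.0205, edgeR). Rps2 was 88.7 to 122 CPM in the 5 libraries, 234 CPM in flox/flox replicate 2 and 190 to 264 CPM in the OMPCre line, and the 18 genes of the family summed to 294 ± 18.6 and 265 ± 31.7 CPM (adjusted p = 0.841). DESeq2 also called Rps3a2, Rps3a1, Rps2 and Rps18 (adjusted p of 3.13e-05, 0.00104, 0.000584 and 0.00871).

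**Figure D2:**
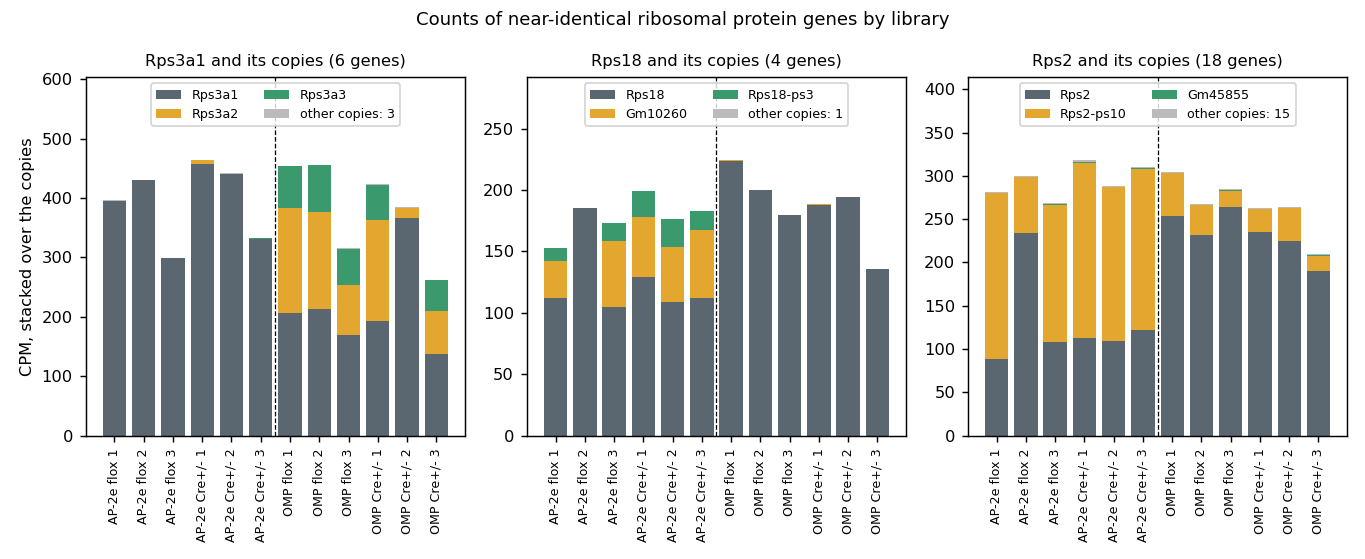
CPM of the Rps3a1, Rps18 and Rps2 families stacked over their copies in each control library, AP-2eCre line left of the dashed line and OMPCre line right of it. Rps3a3 appears on the right except in OMPCre+/- replicate 2, Rps3a2 is 17.2 to 176 CPM on the right and at most 6.24 CPM on the left, and Gm10260 and Rps18-ps3 on the left except for AP-2eCre-line flox/flox replicate 2, while the family sums overlap between the lines.

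AC154457.3 (chromosome 17, 65438128 to 65438697), a copy of the mitochondrial ribosomal protein gene Mrps10, was 1.73 to 3.07 CPM in 5 AP-2eCre-line controls. It had no count in flox/flox replicate 2, the library that was also near the OMPCre line at Gm10260 and Rps18-ps3, and 2 counts in all in the OMPCre line (adjusted p = 0.0291, edgeR).

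When counts of genes that share at least 50% of their 31-mers with a protein-coding gene were added to that gene, 11 of the 18 called genes joined a parent. The 10 joined units had log2 fold changes of -0.11 to 0.15 and adjusted p of 0.841 to 0.991 (edgeR over 17826 units). Where the parent held most of the counts, the sum could move little whatever the copy did, so it does not test the copy. In the AP-2eCre line Gm16589 was 3.84 and Aida 60.2 CPM, and Selenbp2 4.58 and Selenbp1 106 CPM. Rps2-ps10, at 163 CPM beside 129 CPM of Rps2, held more than its parent. Of the 7 genes that stayed single, 6 were still called, namely Gm9765, Gm12312, Bod1-ps, H2-T10, Gm6394 and Alas2, and Gucy2c had an adjusted p of 0.0567. This joining was added after the copies had been seen.

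Alas2 and Gucy2c were the called genes without a close copy, and both were lower in the AP-2eCre line. Alas2 (ENSMUSG00000025270.13, chromosome X, 150547375 to 150570638), the first enzyme of heme synthesis in red cell precursors, was 44.1, 43.2, 35.0, 34.1, 55.1 and 39.3 CPM in the AP-2eCre line. In the OMPCre line it was 70.5, 74.8, 82.8, 97.4, 68.6 and 71.4 CPM. The groups did not overlap, and the means of 41.8 ± 7.70 and 77.6 ± 10.9 CPM gave a log2 fold change of -0.89 ± 0.13 (adjusted p = 0.0259, edgeR). It was called in 3 of the 12 fits that left out 1 library, and its adjusted p was 0.130 without both libraries that stood apart and 0.120 with counts made from length-scaled TPM. Its log2 fold change was -0.82 in the first naming style and -1.06 in the second.

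Of 8 blood genes tested, 7 had a lower level in the AP-2eCre line. Alas2 alone was called by edgeR, while DESeq2 called Alas2 and Hbb-bs, where edgeR called 0.095% and DESeq2 0.745% of all genes. In edgeR's test 6 had an unadjusted p under 0.05, all 6 lower in the AP-2eCre line (6.56% of all genes in either direction), and the median log2 fold change was -0.73 where that of all genes was -0.00360. The globin gene Hbb-bs was 693 to 1352 CPM in the AP-2eCre line and 1059 to 2549 CPM in the OMPCre line (adjusted p = 0.507 by edgeR and 0.0373 by DESeq2). Slc4a1, the anion exchanger of red cells, was 11.1 to 89.7 and 63.2 to 92.9 CPM (adjusted p = 0.757). The summed level of the list was 1623 to 3558 CPM in the AP-2eCre line and 2651 to 6955 CPM in the OMPCre line, so the groups overlapped. In a whole-organ library, fewer red cells and less RNA per cell cannot be told apart, and the part of the amount of blood in the Alas2 value was not tested. In the cKO animals Alas2 was 43.1 to 69.0 CPM in the AP-2eCre line and 51.8 to 69.3 CPM in the OMPCre line, a log2 fold change of -0.21 ± 0.19 (adjusted p = 0.890). By kind, 3 blood genes were lower at an unadjusted p under 0.05 in flox/flox (5.81% of all genes). In heterozygotes 2 were (6.24% of all genes), and in the cKO 0 were lower and 1 higher (8.68% of all genes). The medians were -0.88, -0.59 and -0.09 in this order.

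Gucy2c (ENSMUSG00000042638.14, chromosome 6, 136697284 to 136781765) encodes guanylyl cyclase C, the receptor of guanylin peptides best known from the intestine. It was 12.5, 7.91, 6.82, 9.20, 7.65 and 11.6 CPM in the AP-2eCre line and 23.9, 15.2, 19.3, 19.5, 19.2 and 17.5 CPM in the OMPCre line. All AP-2eCre-line controls were below all OMPCre-line controls, with means of 9.27 ± 2.28 and 19.1 ± 2.85 CPM (log2 fold change -1.05 ± 0.16, adjusted p = 0.0339, edgeR). The cKO animals, which share no library with the controls, had 6.98, 9.20 and 6.27 CPM in the AP-2eCre line and 19.0, 15.3 and 18.9 CPM in the OMPCre line (log2 fold change -1.24 ± 0.18, adjusted p = 0.0885). Gucy2c was called in 2 of the 12 fits with 1 library left out, and its adjusted p was 0.130 without both libraries that stood apart and 0.0721 with length-scaled TPM. Its log2 fold change over all fits ran from -1.17 to -0.96.

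The other called genes were H2-T10, Selenbp2, Gm6394 and Gm4540. H2-T10 (chromosome 17, 36115876 to 36121465), a nonclassical MHC class I gene, was 3.10, 1.16, 3.53, 5.22, 4.27 and 3.73 CPM in the AP-2eCre line and 0.445 to 0.913 CPM in the OMPCre line (log2 fold change 2.31 ± 0.33, adjusted p = 0.0259, edgeR), with flox/flox replicate 2 again the lowest of its line. Selenbp2, a selenium-binding protein gene near-identical to Selenbp1, was 4.02 to 9.13 CPM in 4 AP-2eCre-line controls, 0.524 and 0.693 CPM in AP-2eCre+/- replicates 2 and 1, and 0.133 to 0.538 CPM in the OMPCre line (adjusted p = 0.0332). Gm6394, a pseudogene on chromosome 3 (57717813 to 57718289), was at most 0.0667 CPM in the AP-2eCre line and 0.183 to 29.5 CPM in the OMPCre line (log2 fold change -7.88 ± 1.18, adjusted p = 0.0291). Gm4540, a copy of 1810022K09Rik, was 0.177 to 1.03 and 1.83 to 7.02 CPM (log2 fold change -3.16 ± 0.51, adjusted p = 0.0467).

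The same contrast in the 6 cKO animals was made in other mice, although their genotypes also differ in which neurons lost Smad4, and line and cell type of the loss cannot be told apart there. Of the 18 genes, 10 passed the filter on low counts in the cKO libraries. A gene passes it only where enough cKO libraries hold counts, so no count over the 10 is given. Rps3a3 (log2 fold change -8.53 ± 0.31, adjusted p = 0.000270) and Gm6394 (-10.11 ± 0.80, adjusted p = 0.00811, edgeR) were called again, where 0.155% of genes were called, 0.0442% higher and 0.11% lower, and 8.68% had an unadjusted p under 0.05. Both passed through the OMPCre line, at 49.8 to 71.2 and 8.27 to 31.3 CPM. Selenbp2, at 4.02 to 9.13 CPM in 4 AP-2eCre-line controls, was 0.508 to 0.705 CPM in the AP-2eCre-line cKO and 0.242 to 0.483 CPM in the OMPCre-line cKO (adjusted p = 0.839). H2-T10 was 1.04, 1.80 and 4.10 CPM against 0.725 to 0.856 CPM (log2 fold change 1.58 ± 0.52, adjusted p = 0.439, edgeR), and Gm4540 was 0.372 to 1.06 CPM against 1.41 to 3.88 CPM (-1.97 ± 0.53, adjusted p = 0.333). Rps2-ps10, Gm10260 and Rps18-ps3 had log2 fold changes of 1.99 ± 0.74, 7.42 ± 1.93 and 6.30 ± 1.72, and adjusted p of 0.496, 0.323 and 0.346. The 8 genes not tested were all higher in the AP-2eCre-line controls. In cKO replicates 1 to 3 of that line Gm5514 was 26.8, 0.0143 and 0 CPM, Gm3555 1.58, 0 and 0.0147 CPM, Gm5874 0.572, 0 and 0 CPM, and Gm12312 0.387, 0 and 0 CPM. Bod1-ps was 0, 0 and 0.0587 CPM and AC154457.3 0, 2.42 and 3.75 CPM, while Gm9765 and Gm16589 were near 0 as given above. In the OMPCre-line cKO the 8 were at most 0.0733 CPM. Low values in most cKO libraries are what kept these genes out of the test.

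**Figure D3:**
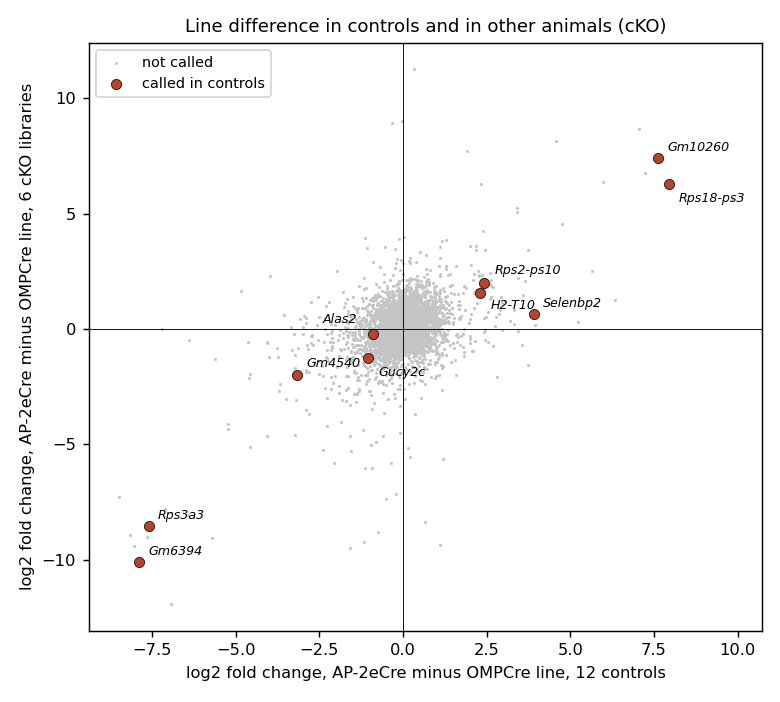
log2 fold change between the lines in the 12 controls (horizontal) against that in the 6 cKO libraries (vertical), 1 point per gene tested in both, with 10 of the genes called in controls in red and the 8 that did not pass the filter in cKO not drawn. Rps3a3 and Gm6394 lie at the lower left end and Alas2 close to the horizontal axis.

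Of 122 V2r genes, the receptors of the basal neurons, 121 were tested, and 97 had a lower and 24 a higher level in the AP-2eCre line. None was called by edgeR, while DESeq2 called 6, all lower, namely Vmn2r74, Vmn2r58, Vmn2r94, Vmn2r71, Vmn2r122 and Vmn2r125 (4.96%, against 0.745% of all genes). In edgeR's test an unadjusted p under 0.05 was reached by 25 with a lower and 1 with a higher level, 21.5% against 6.56% of all genes. The median log2 fold change of the family was -0.22. Vmn2r74 was the member with the smallest p, at 12.6 to 30.9 CPM in the AP-2eCre line and 33.4 to 66.9 CPM in the OMPCre line, without overlap (log2 fold change -1.17 ± 0.24, adjusted p = 0.135 by edgeR and 3.72e-05 by DESeq2). It is named after its values were seen.

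The V2r values were uneven between the kinds of control, a difference not tested for the family. In flox/flox controls 11 V2r genes had an unadjusted p under 0.05 with a higher and 4 with a lower level in the AP-2eCre line (all genes 5.81%), and their median log2 fold change was 0.10. In heterozygotes 54 were lower and 0 higher by this measure (44.6% against 6.24% of all genes), with a median of -0.53, and Vmn2r74 passed the adjusted threshold at 18.2 ± 4.95 CPM in AP-2eCre+/- and 65.1 ± 2.95 CPM in OMPCre+/- (SD, n = 3, log2 fold change -1.84 ± 0.20, adjusted p = 0.00574). The summed V2r level was 4722, 3917 and 4810 CPM in AP-2eCre-line flox/flox, 1988, 3595 and 3564 CPM in AP-2eCre+/-, 4075, 3666 and 5080 CPM in OMPCre-line flox/flox and 4292, 4331 and 4470 CPM in OMPCre+/-. The lowest value is AP-2eCre+/- replicate 1, and without it 18 V2r genes were lower and 8 higher at an unadjusted p under 0.05 and the median was -0.06. This library was also the lowest of its line in the summed basal identity genes (382 CPM against 572 to 735) and in the H2-Mv genes, MHC class I genes of basal neurons (48.5 CPM against 117 to 218). It was lowest too in V1r, transduction and neurogenesis genes. It was the highest of its line in sustentacular enzymes (8031 CPM against 4485 to 5732), endothelial genes (952 CPM against 405 to 717), motile cilia genes and MHC genes. The part of these cells in the V2r values was not tested. In the heterozygotes the line and the lost copy of Tfap2e or Omp cannot be told apart. Of the V2r genes, 83 were lower and 0 higher in the AP-2eCre-line cKO by the same measure (68.6% against 8.68% of all genes), and 6 were called by edgeR. These animals also lost Smad4 in basal neurons.

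V1r genes, the receptors of the apical neurons, held none called by edgeR among 183 tested, with 9 higher and 6 lower at an unadjusted p under 0.05 (8.20%, against 6.56% of all genes). DESeq2 called Vmn1r185, Vmn1r54 and Vmn1r77, the first 2 higher and the last lower in the AP-2eCre line (1.64%, against 0.745% of all genes). Vmn1r185 was 26.3 to 36.1 CPM in the AP-2eCre line and 16.9 to 25.8 CPM in the OMPCre line, without overlap (log2 fold change 0.58 ± 0.10, adjusted p = 0.0878 by edgeR and 0.000235 by DESeq2), and its log2 fold change in the cKO was 0.81. Of 494 odorant receptors edgeR called none and DESeq2 only Olfr449 (adjusted p = 0.0342, against 0.416 by edgeR). This is 0.202% by DESeq2, against 0.745% of all genes. In edgeR's test 3.64% had an unadjusted p under 0.05, against 6.56% of all genes. Neither tool called a gene among 18 genes of vomeronasal transduction, 6 apical and 7 basal identity genes, 18 genes of neurogenesis or 22 cell cycle genes. With 0.095% of all genes called by edgeR and 0.745% by DESeq2, no call in lists of this size says little about them. In the 18 transduction genes none had an unadjusted p under 0.05, and their summed level was 3950 to 4694 CPM in the AP-2eCre line and 4196 to 4882 CPM in the OMPCre line.

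None of 8 SMAD genes, 19 BMP and TGF-beta ligands, 13 receptors and 15 SMAD targets of the pathway that the study removed was called by edgeR or DESeq2. Over all genes edgeR called 0.095% and DESeq2 0.745%, so no call in lists of this size says little about the pathway. An unadjusted p under 0.05 was reached by 1 ligand gene (5.26%) and 1 receptor gene (7.69%), against 6.56% of all genes. Of the 12 genes the study names for its transcriptome data none was called by either. Unc13c, a gene of synaptic vesicle priming, was 2.42 to 4.39 and 2.70 to 5.05 CPM (adjusted p = 0.818, edgeR), and Kirrel3, an adhesion molecule of axon sorting, was 34.4 to 81.8 and 55.0 to 83.2 CPM (adjusted p = 0.927).

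Genes of the immune recognition complex were, of the lists with over 20 genes tested, the one with the highest share at an unadjusted p under 0.05 (42.9%, against 6.56% of all genes). Of 28 MHC genes edgeR called H2-T10 and DESeq2 called H2-T10, H2-Q2, H2-D1 and H2-Bl, all higher in the AP-2eCre line, where edgeR called 0.095% and DESeq2 0.745% of all genes. In edgeR's test 10 had a higher and 2 a lower level at an unadjusted p under 0.05. By kind, 2 were higher and 1 lower in flox/flox (10.7%, against 5.81% of all genes). In heterozygotes 12 were higher and 0 lower (42.9%, against 6.24% of all genes). In the cKO 9 were higher and 1 lower (35.7%, against 8.68% of all genes). The classical class I gene H2-D1 was 178 to 413 CPM in the AP-2eCre line and 130 to 199 CPM in the OMPCre line (log2 fold change 0.76 ± 0.19, adjusted p = 0.286 by edgeR and 0.00412 by DESeq2). H2-Q2 was 1.60 to 6.87 and 0.464 to 1.43 CPM, without overlap (log2 fold change 2.41 ± 0.42, adjusted p = 0.0749 by edgeR and 2.49e-07 by DESeq2). H2-T22, which shares 31-mers with H2-T10, was 16.4 to 31.2 and 22.8 to 31.5 CPM (adjusted p = 0.615). Many of these genes are near copies of each other, and the class I genes differ between inbred strains in sequence and number.

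Genes of other cells of the organ had these values. All 27 motile cilia genes had a higher log2 level in the AP-2eCre line (all genes 49%) and 8 an unadjusted p under 0.05 (29.6%, against 6.56% of all genes), but none was called by edgeR or DESeq2. Without both libraries that stood apart 24 of 27 were higher and 3 had an unadjusted p under 0.05. By this measure 0 cilia genes passed in flox/flox controls (5.81% of all genes) and 3 in heterozygotes (11.1%, against 6.24% of all genes). In the cKO 0 passed (8.68% of all genes). Their median log2 fold changes were 0.23, 0.45 and -0.04 in this order. Within the naming styles of the files their median log2 fold change was 0.13 in the first and 1.02 in the second. Their summed level was 1494 to 1917 CPM in the AP-2eCre line and 807 to 1691 CPM in the OMPCre line, with the muscle-containing library the lowest. Of 19 gland product genes 7 were higher at an unadjusted p under 0.05 (36.8%, against 6.56% of all genes), among them Ltf, the iron-binding lactoferrin, at 4135 to 6005 and 3603 to 4248 CPM (log2 fold change 0.44 ± 0.09, adjusted p = 0.124 by edgeR and 7.91e-05 by DESeq2). DESeq2 called Ltf, Itln1 and Bpifa2 of this list (0.745% of all genes), and edgeR none. In edgeR's tests by kind, 26.3% of the gland genes had an unadjusted p under 0.05 in flox/flox and 31.6% in heterozygotes, all higher. In the cKO 16.7% of 18 did, against 8.68% of all genes. The medians were 0.53, 0.45 and -0.09 in this order. The summed level of the gland list was 34786 to 65564 CPM in the AP-2eCre line and 28940 to 38677 CPM in the OMPCre line, and the median log2 fold change was 0.34 in the first naming style and 1.35 in the second. Of the 13 muscle genes, highest in OMPCre-line flox/flox replicate 3, 12 had a lower level in the AP-2eCre line and none was called. Without both libraries that stood apart 11 were still lower (median log2 fold change -0.76), and in the first naming style, which does not hold that library, the median was -1.09. DESeq2 gave no adjusted p for 10 of the 13. Myeloid genes summed to 575 to 1066 and 535 to 778 CPM. The part of these cells in any single gene value was not tested.

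**Figure D4:**
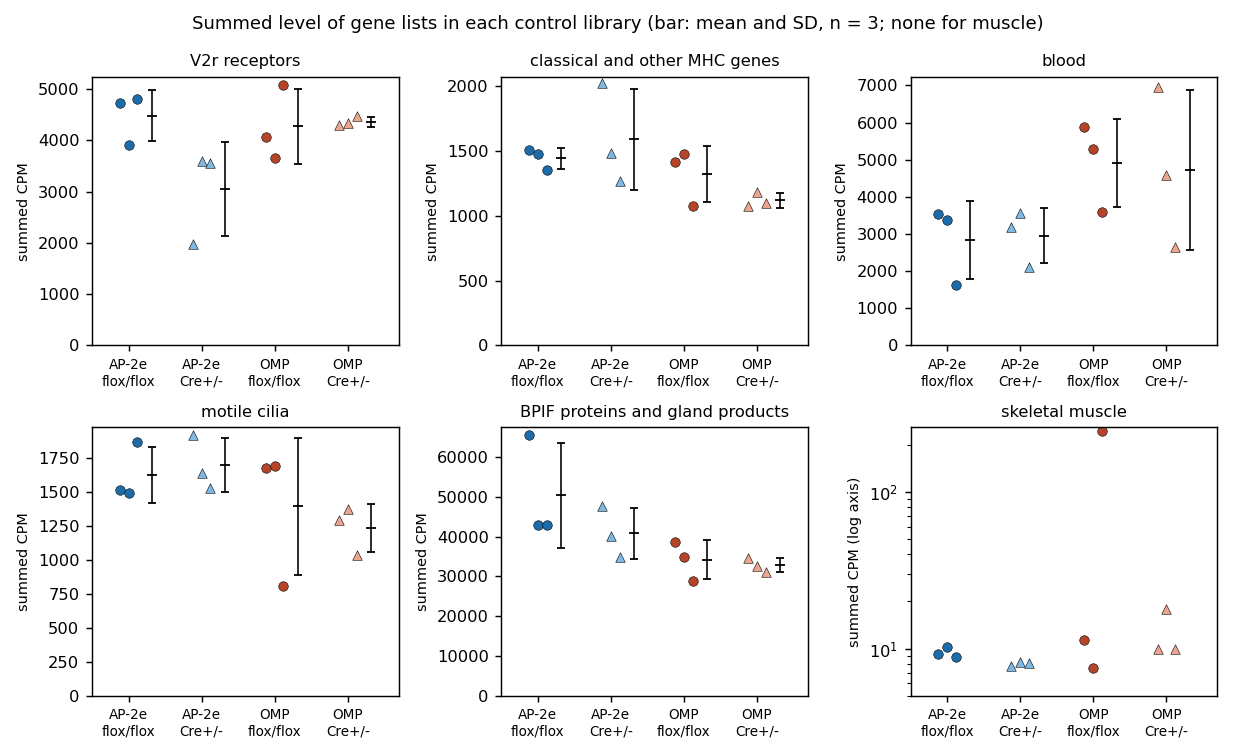
Summed CPM of 6 gene lists in each control library by group of 3, with the mean and SD beside the points except for muscle, which is on a log axis. V2r levels are lowest in AP-2eCre+/-, blood levels have a higher median in the OMPCre line with overlap, and 1 OMPCre-line flox/flox library has 247 CPM of muscle genes.

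When the kinds of control were compared separately, 2 genes were called in flox/flox, both higher in the AP-2eCre line (0.0106% of genes). In heterozygotes 12 were called (0.0634%), 7 higher (0.037%) and 5 lower (0.0264%), and 1 gene, Gm9765, was called in both kinds. The 18 genes were called on both kinds together, so their values within each kind are no separate evidence. In heterozygotes Wdfy1, an endosomal adaptor gene, was 71.0 ± 7.55 CPM in AP-2eCre+/- and 30.6 ± 3.94 CPM in OMPCre+/- (log2 fold change 1.21 ± 0.15, adjusted p = 0.0107, edgeR), and over all controls the ranges were 62.8 to 124 and 26.8 to 111 CPM (adjusted p = 0.250 by edgeR and 0.00282 by DESeq2).

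The difference between the kinds was tested as an interaction and called 6 genes (0.0317% of genes, 0.0106% positive and 0.0211% negative, with 5.37% at an unadjusted p under 0.05), all of them copies of other genes and each near 0 in all 3 libraries of a single group. Vcp-rs (chromosome X, 104345829 to 104348234), a processed copy of the ATPase gene Vcp, was 0.231 to 1.56 CPM in AP-2eCre+/- and 115 to 222, 139 to 159 and 126 to 158 CPM in the other 3 groups (interaction on the log2 scale -7.24 ± 0.64, adjusted p = 0.00406, edgeR). Vcp was 414 to 418 CPM in AP-2eCre+/- and 156 to 312, 256 to 271 and 237 to 252 CPM in the others, so Vcp was highest where its copy was near 0. Gm6685, a copy of Cyb5d1, had no count in AP-2eCre+/- and 1.69 to 4.09 CPM elsewhere (adjusted p = 0.00412), and Gm10320, a copy of Sec61b, was at most 0.216 CPM in AP-2eCre+/- and 4.37 to 17.7 CPM elsewhere (adjusted p = 0.0238).

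Rps15a-ps8 was at most 0.0832 CPM in OMPCre+/- and 4.08 to 20.3 CPM in the other groups (adjusted p = 0.00501, edgeR). Its parent Rps15a went the other way from Vcp, with its lowest mean in OMPCre+/- (71.2 ± 26.6 CPM against 76.0 to 83.4 CPM in the other groups), within the spread. Gm10167, on chromosome 5, was at most 0.0333 CPM in OMPCre+/- and 1.49 to 5.82 CPM in the others (adjusted p = 0.0419). Gm2223, whose 31-mers all occur in Eif2s3x, had no count in OMPCre-line flox/flox and 4.05 to 15.9 CPM in the other groups (adjusted p = 0.00554). Vcp-rs, Gm6685, Gm10320, Rps15a-ps8 and Gm10167 were present in the cKO groups of both lines, while Gm2223 had no count in 1 of the 3 cKO libraries of each line.

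**Figure D5:**
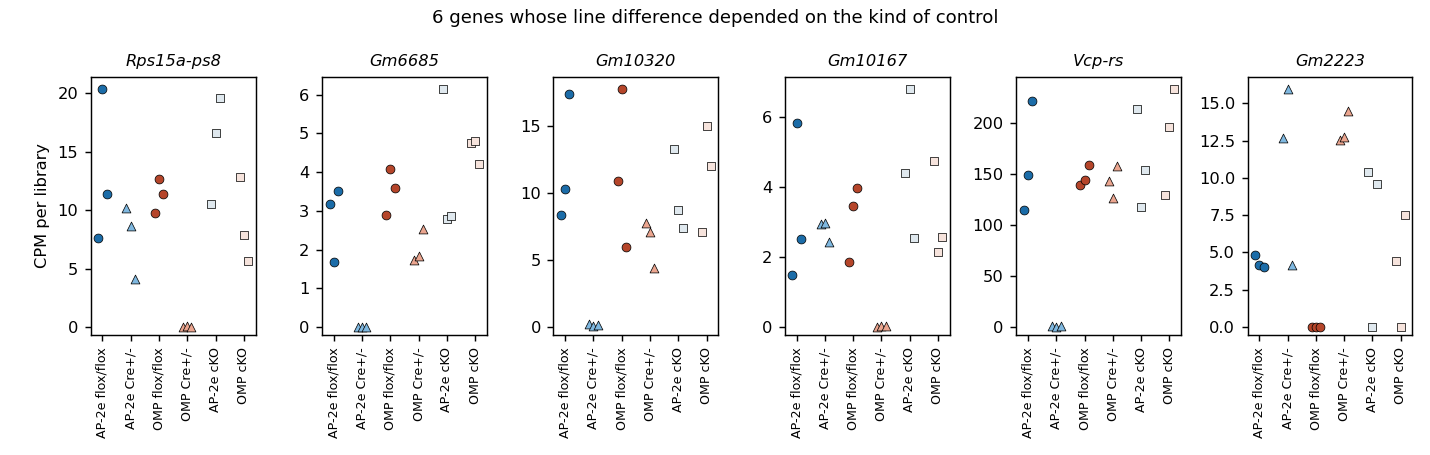
CPM per library of the 6 genes with an interaction of line and kind of control, for the 4 control groups and, in pale squares, the cKO groups. Each gene is near 0 in 1 control group, AP-2eCre+/- for Gm6685, Gm10320 and Vcp-rs, OMPCre+/- for Rps15a-ps8 and Gm10167, and OMPCre-line flox/flox for Gm2223.

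The called genes lay on many chromosomes. Neither the 312 genes tested within 10 Mb of Tfap2e nor the 246 within 10 Mb of Omp nor the 100 within 10 Mb of Smad4, the loci at which the lines or their cKO were engineered, held a gene called by edgeR. DESeq2 called 2 genes near Tfap2e, Smpdl3b and Epb41 (0.641%, adjusted p of 0.0166 and 0.0197), 1 near Omp, the globin gene Hbb-bs (0.407%), and none near Smad4. Over all genes edgeR called 0.095% and DESeq2 0.745%. No locus was above these shares, and sets of this size would hold few calls at them. An unadjusted p under 0.05 was reached by 8.65% of genes near Tfap2e and 6.21% on the rest of chromosome 4, by 5.69% near Omp and 7.03% on the rest of chromosome 7, and by 8% near Smad4 and 3.61% on the rest of chromosome 18. Among chromosomes 1 to 19 and X, chromosome 17 had the highest share at 9.18% of 1002 genes. Of 348 windows of 5 Mb with at least 20 genes tested, the first 5 by share of edgeR calls held 1 called gene each, namely AC154457.3, Gm5514, Gm6394, Gucy2c and Alas2. No window held more than 1, so this order reflects only how few genes were tested in a window.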

How the data were processed

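Per the labels and methods, the authors made stranded polyA+ libraries of whole vomeronasal organs, estimated transcript levels by Salmon 0.14.0 with mm10 (GRCm38) and used DESeq2 1.22.2. The deposited values used here are the authors' estimated counts per transcript, not normalized. The deposited TPM served only an alternative. Of 116248 transcripts 116072 matched a GENCODE vM21 gene, while 176 did not and took no more than 0.0324% of any library. Counts were summed over 35596 genes and rounded. Groups came from the labels, with the Smad4 flox/flox genotype of the controls labelled wild type from the methods.

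Quasi-likelihood tests of edgeR (version 4.0.16 in R 4.3.3, TMM, filterByExpr, Benjamini-Hochberg adjustment, two-sided) had the kind of control as covariate. Nothing in the labels ties libraries to separate litters, so p-values measure the spread between these animals. Alternatives were DESeq2 1.42.0, other size factors, filters and thresholds, no covariate, a replicate block, all 18 libraries, and 1 library left out. A robust prior, joined copies, the naming style of the files (as a term and within each style) and a fit without both libraries that stood apart were added after seeing the data. CPM were scaled by TMM over all 19 libraries. Shared 31-mers were counted over GENCODE transcripts. The tests were tested on simulated data.

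The members and gene lists were chosen with earlier results of these data known. Named genes are, among called genes without overlap, up to 10 each way at a mean of at least 1 CPM and up to 5 each way at 100 CPM. Also named are the study's genes and up to 4 called genes per list. The last are up to 3 called genes in each of the 5 windows of 5 Mb with the highest share of calls. Other called genes, parents, interaction genes and uncalled list members are named after their values were seen. Some items are not reported here. Counting intervals are exact Poisson intervals at 95%. Tables and figures used Python 3.11.15, pandas 2.3.3, numpy 2.4.6, scipy 1.17.1 and matplotlib 3.10.9.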

Additional observations from a re-analysis of the deposited data

Results flagged for a closer look

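Single libraries far from the other 5 of their line were looked for in 84 sets of 6 values, with Dixon's ratio of the gap to the range. The critical value was passed in 14 sets. Chance gives about 1 in 20 for sets of continuous values, a rate that does not apply to the 4 sets below in which the other 5 libraries had no count (Gm16589, Gm12312, Bod1-ps and AC154457.3 in the OMPCre line).

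At called genes, Gm16589 was 0.111 CPM in OMPCre-line flox/flox replicate 3, Rps18-ps3 0.204 CPM and Bod1-ps 0.0185 CPM in the same library, Gm12312 0.0166 CPM in OMPCre+/- replicate 2, and AC154457.3 0.0313 CPM in OMPCre+/- replicate 1, where the other libraries of the line were at or near 0. In AP-2eCre+/- replicate 1, Gm12312 was 1.54 CPM (next 0.652) and Gm4540 1.03 CPM (next 0.417). Rps3a3 was 0.250 CPM in OMPCre+/- replicate 2, where the next lowest of the line was 51.2 CPM, and Rps2-ps10 was 64.2 CPM in AP-2eCre-line flox/flox replicate 2, where the next was 158 CPM.

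Among genes that edgeR did not call, Kirrel was 62.4 CPM in AP-2eCre-line flox/flox replicate 3 (next 83.7) and Tenm2 53.6 CPM in AP-2eCre+/- replicate 1 (next 73.9). MHC genes summed to 2022 CPM in AP-2eCre+/- replicate 1 (next 1507), muscle genes to 247 CPM in OMPCre-line flox/flox replicate 3 (next 18.02), and Y-linked genes to 140 CPM in AP-2eCre-line flox/flox replicate 3 (next 5.35).

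The line difference depended on the kind of control for 6 genes in edgeR's interaction test. On the log2 scale, heterozygotes minus flox/flox, it was 7.06 for Rps15a-ps8, -9.56 for Gm6685, -5.35 for Gm10320, 6.84 for Gm10167, -7.24 for Vcp-rs and -11.27 for Gm2223.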

How the results depend on the processing

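The 18 calls between the lines became 144 with DESeq2, 8 with the replicate block, 3 with at least 10 counts in every library, 39 with all 18 libraries in 1 fit, 0 at an adjusted p under 0.001 (edgeR, with 1242 genes at an unadjusted p under 0.05 and 1508 by DESeq2), 5 without both libraries that stood apart, 6 with near-identical copies added together, 6 in the first naming style alone and 0 in the second (edgeR, 4 libraries, 1347 genes at an unadjusted p under 0.05; DESeq2 was not run there). They ranged from 4 to 23 with 1 library left out, lowest without AP-2eCre-line flox/flox replicate 3 and highest without its replicate 2. Of the 12 libraries, leaving out any but AP-2eCre-line flox/flox replicate 2, OMPCre-line flox/flox replicates 2 and 3 and OMPCre+/- replicate 3 moved the count by over 1.5 times. The other settings gave 14 to 20. Calls in flox/flox controls went from 2 to 101 with DESeq2, 1 with the naming style as a term and 0 with the replicate block (edgeR, 1101 genes at an unadjusted p under 0.05 in the fit without it), and from 1 to 10 with 1 library left out. Calls in heterozygotes went from 12 to 168 with DESeq2 and 6 with the replicate block, and from 7 to 28 with 1 left out. Interaction calls went from 6 to 95 with DESeq2, and from 4 to 8 with 1 left out. Calls in cKO went from 28 to 375 with DESeq2, 46 with the naming style as a term and 3 with the replicate block, and from 2 to 33 with 1 left out. The replicate numbers belong to different animals, and residuals of the 18 same-numbered pairs of control libraries correlated at -0.12 to 0.31 (mean 0.11, against -0.05 for other pairs), not above 0.1 in every pair, so the numbers were not taken to pair samples, although replicate 3 shares the second naming style in all 4 control groups. Among the 18 genes no value changed sign under any setting. Gm9765 was called under 12 of the 14 other settings that gave it a value and in all 12 fits with 1 library left out, and Gm16589 and Gm5514 in all 12 such fits, while Bod1-ps was called in none of the 12. For genes with no count the depth allows no fold beyond that from the floor.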

Other observations

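The AP-2eCre-line library left out for its labels had 4 of the 13 called genes without overlap within the range of the AP-2eCre-line controls, 7 within that of the OMPCre-line controls and 2 in neither. In it Gm5514 was 33.1 CPM and Gm3555 3.52 CPM, while Gm9765 and Gm16589 had no count, Rps2-ps10 was 34.1 CPM, Alas2 88.2 CPM and Gucy2c 7.99 CPM. It had 6.82 CPM of Tfap2e and 87.4 CPM of Smad4. AP-2eCre-line cKO replicate 1 had OMPCre-line values of Gm10260 (0.0928 CPM), Rps18-ps3 (0.155 CPM) and Rps2-ps10 (25.3 CPM), and cKO replicates 2 and 3 had 47.1 and 55.0, 13.7 and 21.4, and 216 and 206 CPM.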
